A study of Mus musculus with 3 samples.

Results

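Nuclear genes for the last stages of mitochondrial respiration were followed in mouse skeletal muscle: complex III (cytochrome bc1), complex IV (cytochrome c oxidase) and ATP synthase. The members were every gene row whose symbol begins with Uqcr, Cox4i, Cox5, Cox6, Cox7, Cox8 or Atp5, plus Cyc1, with pseudogene symbols (-ps) left out. This gave 44 of the 24481 rows, of which 41 encode structural subunits (9 of complex III, 17 of complex IV counting every isoform gene, 15 of ATP synthase). The other 3 are Cox7a2l, which encodes a supercomplex assembly protein, Atp5s, which encodes coupling factor B, and Atp5sl, which encodes DMAC2, an assembly protein of complex I. Muscle came from outbred ICR mice aged 42 days after birth, and the study's title names leaf extract of the dwarf bamboo Sasa quelpaertensis and fatigue. There were 3 libraries of 3' end sequencing, 1 for each group: mice labelled only as control, mice labelled exercise control, and exercised mice given a treatment labelled SQH. The labels name neither the muscle, the exercise, the sex nor the SQH dose, and leave unsaid whether 1 animal or a pool gave each library.

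Complex III takes electrons from ubiquinol and hands them to cytochrome c while it pumps protons across the inner mitochondrial membrane. Complex IV passes the electrons on to oxygen, and ATP synthase lets the protons back through a rotating ring of c subunits to make ATP. The catalytic subunits of complex IV and a few membrane subunits of complex III and ATP synthase are encoded in mitochondrial DNA and were not analysed here. Several nuclear subunits have a pair of genes, one used in most tissues and another (Cox6a2, Cox7a1, Cox8b) switched on in mature heart and skeletal muscle. The 3 c-subunit genes, Atp5g1, Atp5g2 and Atp5g3, encode the same mature protein behind different mitochondrial import sequences.

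The upstream sequences of the c-subunit genes and of the muscle and common isoforms of subunit 8 are shown. The levels of these genes are compared below, and what sets them was not tested. Each run is the 250 bases before the gene's start in RefSeq (GRCm38.p6, the assembly also called mm10), 5′ to 3′ on the gene's strand. Capitals mark matches, on either strand, to the E-box CAGCTG, the nuclear receptor half-site AAGGTCA, the NRF-1 core GCGCATGC, the GC box GGGCGG, the CCAAT box or the TATA box letters TATAAA.
Atp5g1 (chr11:96075632-96075881, minus strand): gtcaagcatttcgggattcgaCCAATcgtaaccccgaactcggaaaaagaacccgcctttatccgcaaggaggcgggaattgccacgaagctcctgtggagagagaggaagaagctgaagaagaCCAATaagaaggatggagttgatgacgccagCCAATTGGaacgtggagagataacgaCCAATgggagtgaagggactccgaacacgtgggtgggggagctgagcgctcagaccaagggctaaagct
Atp5g2 (chr15:102671048-102671297, minus strand): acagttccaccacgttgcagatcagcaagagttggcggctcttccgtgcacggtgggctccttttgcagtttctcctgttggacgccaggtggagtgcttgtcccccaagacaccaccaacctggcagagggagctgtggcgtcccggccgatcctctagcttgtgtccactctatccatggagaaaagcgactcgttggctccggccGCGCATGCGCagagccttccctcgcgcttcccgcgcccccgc
Atp5g3 (chr2:73911327-73911576, minus strand): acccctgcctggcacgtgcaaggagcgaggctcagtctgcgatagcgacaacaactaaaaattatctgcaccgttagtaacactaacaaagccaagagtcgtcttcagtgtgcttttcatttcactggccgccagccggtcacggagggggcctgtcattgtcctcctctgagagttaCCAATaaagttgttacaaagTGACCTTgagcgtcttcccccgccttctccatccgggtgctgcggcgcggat
Cox8b (chr7:140900447-140900696, minus strand): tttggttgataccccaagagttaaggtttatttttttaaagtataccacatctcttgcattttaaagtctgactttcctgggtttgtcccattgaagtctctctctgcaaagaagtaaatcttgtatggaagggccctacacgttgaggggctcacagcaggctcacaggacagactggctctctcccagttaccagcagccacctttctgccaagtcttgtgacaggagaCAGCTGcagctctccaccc
Cox8a (chr19:7217617-7217866, minus strand): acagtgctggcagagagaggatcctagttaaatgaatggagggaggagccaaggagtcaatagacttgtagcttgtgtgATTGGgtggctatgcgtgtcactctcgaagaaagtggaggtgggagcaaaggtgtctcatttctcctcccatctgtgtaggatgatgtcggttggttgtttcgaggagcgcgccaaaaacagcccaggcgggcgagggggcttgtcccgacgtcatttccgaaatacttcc

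The Atp5g1 run held 5 matches to CCAAT, of which a pair overlap on opposite strands, while Atp5g3 and Cox8a held 1 each and Atp5g2 and Cox8b none. CCAAT was present in 33.8% of the 32851 upstream runs of the same length. Atp5g2 held a pair of overlapping GCGCATGC matches, present in 2.26% of all runs. Atp5g3 held 1 match to AAGGTCA (4.08% of all runs), and Cox8b held 1 to CAGCTG (13.0% of all runs). The GC box (32.7% of all runs) and the TATA letters (12.4%) matched none of the 5 runs. These matches describe the letters only. The GENCODE M21 annotation, used below for shared transcript ends, places the Atp5g2 gene at 102662864 to 102672352, so the Atp5g2 run lies inside it. The Atp5g1 run overlaps the start of the GENCODE gene, at 96075670.

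The deposited values are log2 levels, adjusted for library size, and in this kind of library the number of reads does not grow with transcript length. Depth, estimated from the spacing of the lowest values, came to roughly 10.8 M, 8.12 M and 12.4 M reads (control, exercise control, exercise plus SQH; values are given in this order throughout). With 1 library per group there is no replicate error and no p-value. Each ± after a difference is a standard error from read counting only, so variation among animals or preparations is not in it. A row was called higher or lower at a difference of 1 on the log2 scale (2-fold) if its mean linear value reached 66.5, the median of expressed rows, which 7857 rows did. Of the 44 members 39 passed this minimum, 37 of them structural subunits, and all 39 also lay in the upper quartile of expressed rows. Muscle markers were abundant in every library, with Ckm, muscle creatine kinase, between 16.59 and 17.24 and Acta1, skeletal actin, between 18.34 and 19.01. The fast-fibre genes were not level: Myh4, a fast myosin, stood at 16.93, 17.35 and 16.19 and was called lower under SQH against the exercise control (-1.16), Tnnt3, fast troponin T, stood at 16.08, 16.46 and 15.715, and Myh1, another fast myosin, at 14.20, 14.99 and 15.14. The exercise control library stood apart in slow-fibre and nerve transcripts: 8 of 9 slow-fibre markers were called lower there than in the control and higher again with SQH, and their summed level was 19.06, 15.50 and 18.72. In the same library 5 of 6 nerve and Schwann cell markers were higher (summed levels 10.24, 12.07 and 10.33). The 7 adipocyte markers, of which Lep was at 0 in every library, summed to 8.12, 7.04 and 8.96. That sum rests on few reads, as only 2 of the 7, Cfd and Cidea, passed the minimum. Cidec was also at 0 in the exercise control, and Ucp1 was above 0 only under SQH. Cfd, with about 64 reads in the exercise control, was level with the control (-0.02). The part of these shifts in the results below was not tested, and in whole muscle fewer cells of a type and less RNA per cell cannot be told apart.

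Transcripts of complexes III and IV and ATP synthase were abundant and nearly level across the 3 libraries. The 44 members together took 1.998% of the summed linear level of the control library, 2.14% of that of the exercise control and 2.22% under SQH. Complex III accounted for 0.480%, 0.511% and 0.496%, complex IV for 0.548%, 0.588% and 0.604%, and ATP synthase for 0.952%, 1.02% and 1.10%. Of the 39 members past the minimum, 29 spanned less than 0.5 on the log2 scale over all libraries. The other 10 were Uqcrfs1, Cox5b, Cox6a1, Cox7b, Cox7c, Cox8a, Atp5g1, Atp5g2, Atp5h and Atp5j. The control was the lowest of the 3 libraries for 18 members, the exercise control for 10 and SQH for 11. Neither these spans nor the lowest library was counted over all rows, so these counts have no background beside them. These small shifts therefore went in several directions, and a few subunits departed from the others of their own complex.

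**Figure D1:**
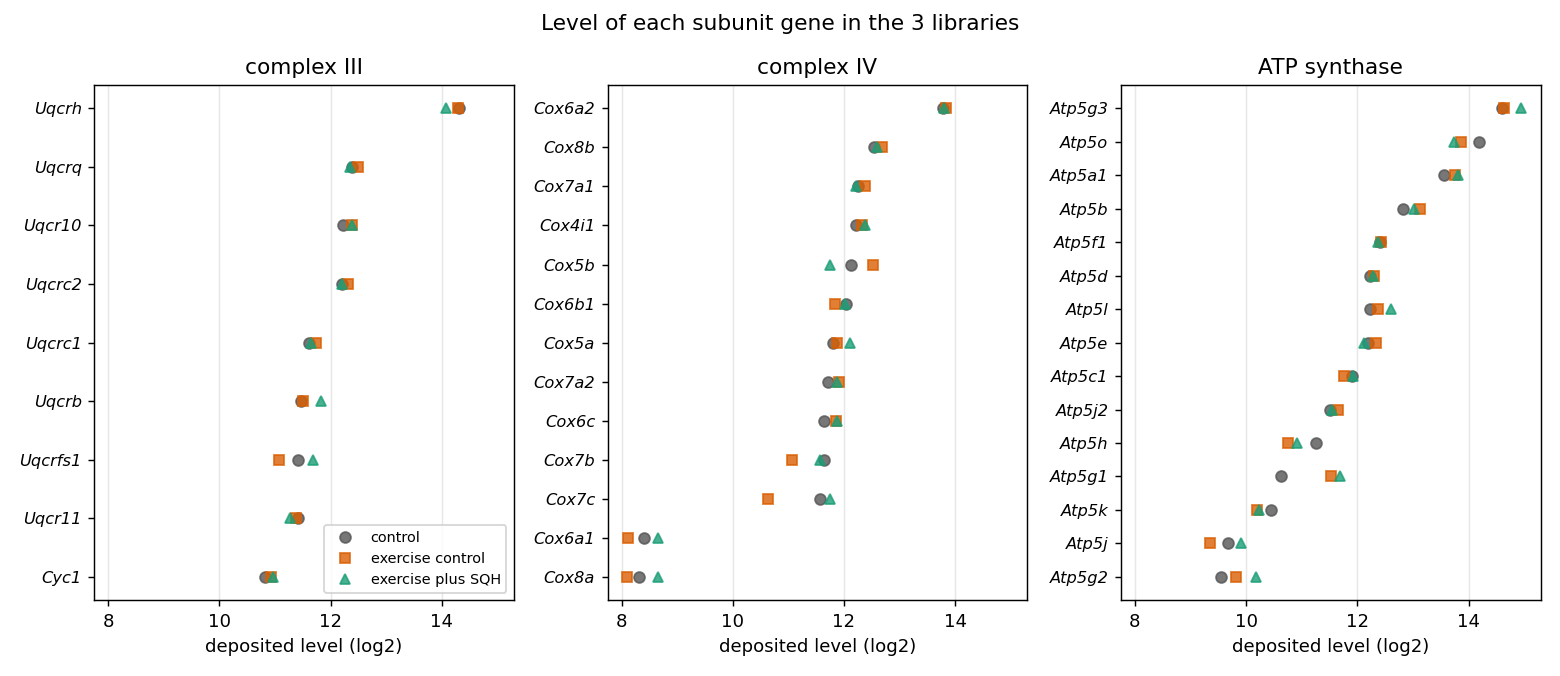
Deposited log2 level (x axis) of the 37 structural subunit genes past the expression minimum, by complex, with 1 symbol for each library. Most genes have their 3 symbols close together, while Cox7c, Cox5b, Uqcrfs1, Atp5g1 and Atp5h are spread, and Cox6a1 and Cox8a lie far below the rest of complex IV.

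Between the exercise control and the control, no member was called, where 2.95% of all 7857 rows were called higher and 5.33% lower. At a lower bar of 1.5-fold 1 subunit lay above it, Atp5g1, and 1 below it, Cox7c, against 10.1% and 15.5% of all rows. The 37 subunits had a median difference of 0.09, with 24 (64.9%) above 0. The median over all rows was -0.05 (-0.045 before rounding), with 46.3% of rows above 0. Of the subunits 33 (89.2%) differed by less than 0.5, as did 68.2% of all rows and 74.98% of the rows in the upper quartile of level. By complex the medians were 0.10 for complex III, 0.09 for complex IV and 0.07 (0.065) for ATP synthase. They came to between 0.14 and 0.18 across complexes after centring or quantile normalization. The median over all rows then came to 0.027 and 0.02.

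Between exercise plus SQH and the exercise control, 1 member was called higher, Cox7c, and none lower, against 5.68% and 2.33% of all rows. At 1.5-fold the higher subunits were Cox7c and Uqcrfs1 and the lower 1 was Cox5b, where 14.8% of rows were higher and 9.28% lower. The median over the 37 subunits was 0.03 (0.026), the same as over all rows. Complex III had a median of -0.10 (-0.095), with 6 of its 9 subunits below 0, beside 47.8% of all rows. The medians of complex IV (0.06) and ATP synthase (0.05) became -0.014 and -0.021 after centring. The median over all rows then became -0.047, so the signs of these medians depend on the scaling.

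Between exercise plus SQH and the control, libraries with similar slow-fibre levels, 1 member was called higher, Atp5g1, and none lower, against 1.76% and 1.26% of all rows. At 1.5-fold Atp5g1 and Atp5g2 were higher and none was lower, against 7.41% and 6.36% of rows. Of the 37 subunits 35 (94.6%) differed by less than 0.5, beside 80.7% of all rows and 87.6% of those in the upper quartile. Complex IV had a median of 0.16 with 9 of 13 subunits above 0, ATP synthase of 0.05 and complex III of 0.03. Over all rows the median was -0.015, with 48.7% of rows above 0. The complex IV median was 0.041 without members that share transcript-end sequence with other genes, described below. Every pair of these comparisons shares 1 library. Complex I, the entry point of the chain, had 36 subunit symbols past the minimum, none called in any comparison, with medians of 0.05, -0.12 and -0.06 in the same order of comparisons.

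**Figure D2:**
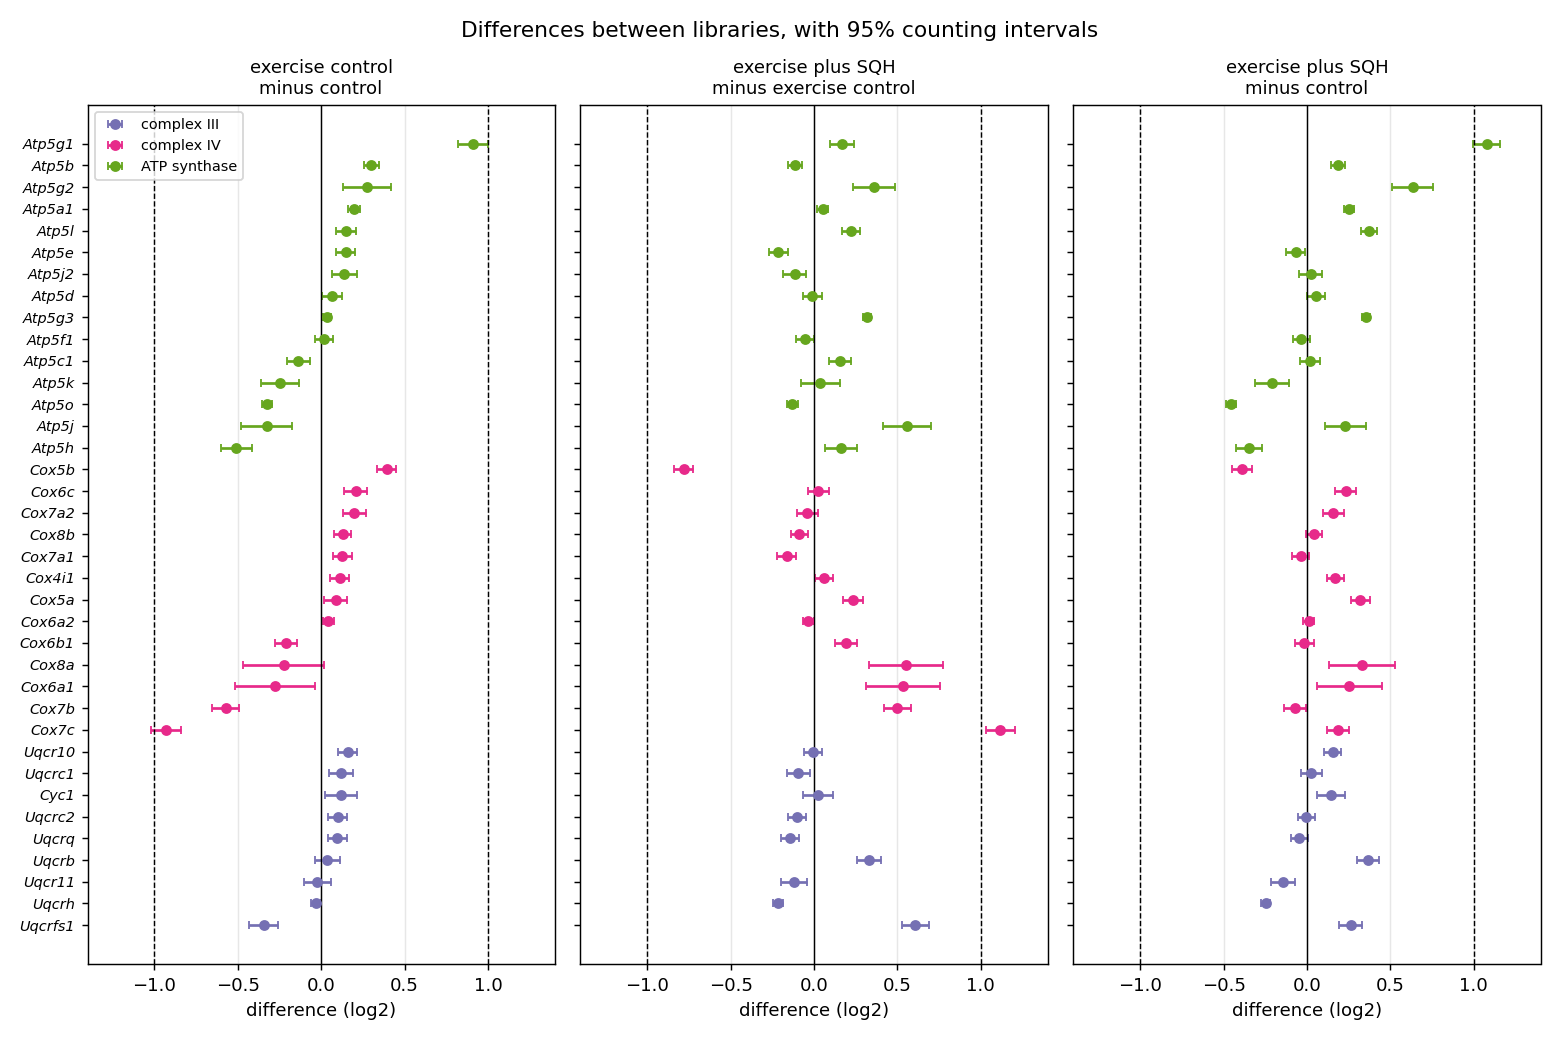
Difference in log2 level (x axis) of the 37 structural subunit genes in each comparison, coloured by complex, with bars for the 95% interval of counting reads alone; dashed lines mark 2-fold. Cox7c (1.12) lies past the line in exercise plus SQH against exercise control and Atp5g1 (1.08) in exercise plus SQH against control, and no gene does in exercise control against control.

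In complex III, the transcript of the Rieske iron-sulfur protein, Uqcrfs1, which takes electrons from ubiquinol, varied most. Uqcrfs1 stood at 11.42, 11.07 and 11.68. The exercise control was lowest, by -0.345 ± 0.043 from the control, and SQH lay 0.61 ± 0.04 above it (1.52-fold). Its catalytic partner Cyc1, cytochrome c1, spanned only 0.14, at 10.81, 10.93 and 10.96, and was the lowest transcript of the complex in all 3 libraries. The core proteins Uqcrc1 (11.62, 11.74 and 11.65) and Uqcrc2 (12.21, 12.31 and 12.21), which face the matrix, spanned 0.12 and 0.10. Uqcrh, the acidic hinge protein that sits beside cytochrome c1, was the most abundant, at 14.32, 14.29 and 14.07, and was lower with SQH than in the control by -0.25 ± 0.01. Subunits of 1 complex thus ranged in level by 11.4-fold, 10.3-fold and 8.66-fold.

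Among the small subunits of complex III, Uqcrb, which lines the quinone site region, stood at 11.46, 11.50 and 11.83 and was higher with SQH than in the control by 0.37 ± 0.03. This is the largest positive difference of the complex in that comparison, but 40.6% of the 50-base runs in the last 300 bases of Uqcrb transcripts also occur in other annotated genes. Uqcr10 (12.23, 12.39 and 12.385) lay 0.16 ± 0.03 above the control in the exercise control. Uqcrq stood at 12.39, 12.49 and 12.35 and Uqcr11 at 11.41, 11.39 and 11.27 (11.265). None of these small subunits spanned as much as 0.5.

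Complex IV held the widest-moving transcript, Cox7c, which encodes a small membrane subunit. Cox7c stood at 11.56, 10.63 and 11.75. The exercise control was lower than the control by -0.93 ± 0.05, short of the 2-fold line, and SQH was higher than the exercise control by 1.12 ± 0.04 (2.17-fold), past it. SQH and control differed by 0.19 ± 0.03. This gene (chromosome 13, 86044816 to 86046904, minus strand) shares 65.2% of the 50-base runs of its transcript ends with other genes, most of them with the processed pseudogenes Gm10012 (47.1%) and Gm12338 (34.6%). Both pseudogenes have rows in the files at levels near or above those of the gene itself. Gm12338 stood at 12.72, 11.91 and 12.76, above Cox7c in every library, and Gm10012 at 11.475, 10.72 and 11.72. They shifted with Cox7c, by -0.81 ± 0.03 and -0.76 ± 0.05 in the exercise control against the control and by 0.85 ± 0.03 and 0.999 ± 0.044 in SQH against the exercise control. Reads of the gene and its copies cannot be told apart where the sequences are the same. The linear sum of the 3 rows stood at 13.63, 12.80 and 13.75, with differences of -0.83 and 0.95, so the sum did not reach 2-fold. The summed slow-fibre markers were also lowest in the exercise control (19.06, 15.50 and 18.72). Under SQH they lay below the control, while Cox7c lay above it. Any link between them was not tested.

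Cox5b, which encodes a zinc-binding subunit on the matrix side, went the other way. Its levels were 12.13, 12.53 and 11.74, so that the exercise control was the highest library (0.39 ± 0.03 above the control) and SQH the lowest. SQH lay below the exercise control by -0.78 ± 0.03 (0.582-fold) and below the control by -0.39 ± 0.03. Its transcript ends share 18.5% of 50-base runs with another gene. Cox5a, the neighbouring matrix-side subunit, stood at 11.79, 11.88 and 12.115 and was higher with SQH than in the control by 0.32 ± 0.03. The 2 matrix-side subunits of 1 enzyme thus had opposite signs in that comparison.

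Cox7b, a membrane subunit on the X chromosome with no shared transcript end, stood at 11.64, 11.07 and 11.57. It was lowest in the exercise control, by -0.57 ± 0.04 from the control, and SQH lay 0.50 ± 0.04 above the exercise control. Cox4i1, the common isoform of the subunit that responds to ATP, spanned 0.17 (12.21, 12.32 and 12.38). Cox6b1, which faces the intermembrane space, stood at 12.04, 11.83 and 12.025, and Cox6c at 11.65, 11.85 and 11.88. They spanned 0.21 and 0.23. Cox6c shares 34.9% of its transcript-end runs with Cox6c2, a copy annotated as a pseudogene.

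**Figure D3:**
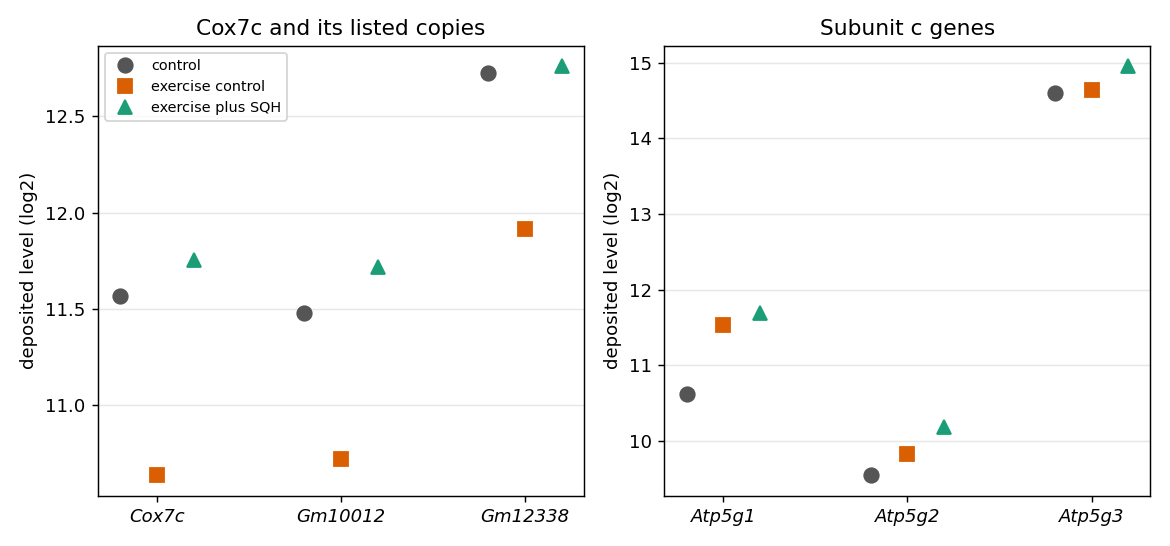
Deposited log2 level (y axis) of Cox7c and the 2 processed pseudogenes that share its transcript end (left), and of the 3 genes for ATP synthase subunit c (right), with 1 symbol for each library. The exercise control is the lowest library for Cox7c, Gm10012 and Gm12338 alike, and the control is the lowest for all 3 subunit c genes.

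As deposited, the muscle isoforms of subunits 6a and 8 of complex IV differed less between libraries than their common partners. Cox6a2, the heart and muscle form of subunit 6a, stood at 13.79, 13.83 and 13.80, the highest transcript of the complex, with a span of 0.04 as deposited. After quantile normalization Cox6a2 lay above the control by 0.14 in the exercise control and 0.18 under SQH. Its common partner Cox6a1 stood at 8.40, 8.12 and 8.65, lowest in the exercise control and highest with SQH, which differed by 0.53 ± 0.11. Subunit 8 showed the same layout. Cox8b, the muscle form, stood at 12.55, 12.68 and 12.59, and Cox8a, the common form, at 8.32, 8.09 and 8.65, with SQH 0.55 ± 0.11 above the exercise control. Neither Cox8b, Cox8a nor Cox6a2 shares a 50-base run at its transcript ends with another gene, and Cox6a1 shares 2.79%.

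Both isoforms of a pair come from the same library, so 1 scaling factor per library leaves their ratio as it is, while quantile normalization, which rescales by level, does not. Cox6a2 exceeded Cox6a1 by 42.0-fold, 52.5-fold and 35.4-fold. Against the control, the log2 ratio in the exercise control was higher by 0.32 ± 0.12, and lower under SQH than there (-0.57 ± 0.11). Cox8b exceeded Cox8a by 18.8-fold, 24.0-fold and 15.4-fold, with differences in log2 ratio of 0.35 ± 0.13 and -0.64 ± 0.12. In both pairs the exercise control had the most muscle-weighted ratio and SQH the least, with SQH also below the control, by -0.245 ± 0.10 for subunit 6a and -0.29 ± 0.10 for subunit 8. After quantile normalization these last differences were -0.07 and -0.17, within their counting intervals of 0, while the differences between SQH and the exercise control were -0.42 and -0.55. The summed slow-fibre and adipocyte markers were likewise lowest in the exercise control (15.50 and 7.04, the latter from few reads), and nerve markers were highest there (12.07). Their part in the isoform ratios was not tested.

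Subunit 7a differed from this pattern. Its muscle form Cox7a1 (12.25, 12.38 and 12.215) exceeded the common form Cox7a2 (11.71, 11.91 and 11.87) by only 1.45-fold, 1.38-fold and 1.27-fold. The log2 ratio was lower with SQH than in the control by -0.20 ± 0.04 and in the exercise control by -0.07 ± 0.05, so the exercise control lay between the other libraries here. As shares of a family's linear level, the muscle forms made up 97.7%, 98.1% and 97.3% of subunit 6a, 94.9%, 96.0% and 93.9% of subunit 8, and 59.3%, 58.0% and 55.9% of subunit 7a. The family sum of subunit 6a stood at 13.82, 13.86 and 13.84 and that of subunit 8 at 12.62, 12.74 and 12.68. The sum of subunit 7a moved more, at 13.01, 13.16 and 13.05.

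One neighbour of Cox6a2 may bear on its reads. Itgad, an integrin gene on the opposite strand of chromosome 7, shares 70 exonic bases with Cox6a2 and was listed at 10.85, 9.09 and 10.43. Integrin alpha D is known as a leukocyte protein. Itgad was called lower in the exercise control (-1.76 ± 0.07), a shift that Cox6a2 did not show. The strand handling of the counting is not given in the sources used here, so reads of either gene may sit in the row of the other. The same limit holds for other members that overlap exons on the opposite strand. Among them are Uqcrc2 (504 bases with Pdzd9), Atp5f1 (337 with Wdr77) and Cox4i1 (154 with Emc8).

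Isoforms of other tissues were at or near 0. Cox7b2 and Cox8c, made in testis, were listed at 0 in all 3 libraries, as were the 4 germ cell markers Prm1, Prm2, Tnp1 and Tnp2. Cox6b2, the testis form of subunit 6b, was listed at 0 in the control and with SQH and at 3.56 in the exercise control, about 10 reads. Cox4i2, the lung and hypoxia form of subunit 4, was listed at 0, 1.21 and 2.03, about 2 reads in the exercise control and 5 with SQH. These 4 genes did not reach the expression minimum, and the fifth member that missed it was Atp5s, at 4.95, 5.53 and 5.11.

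**Figure D4:**
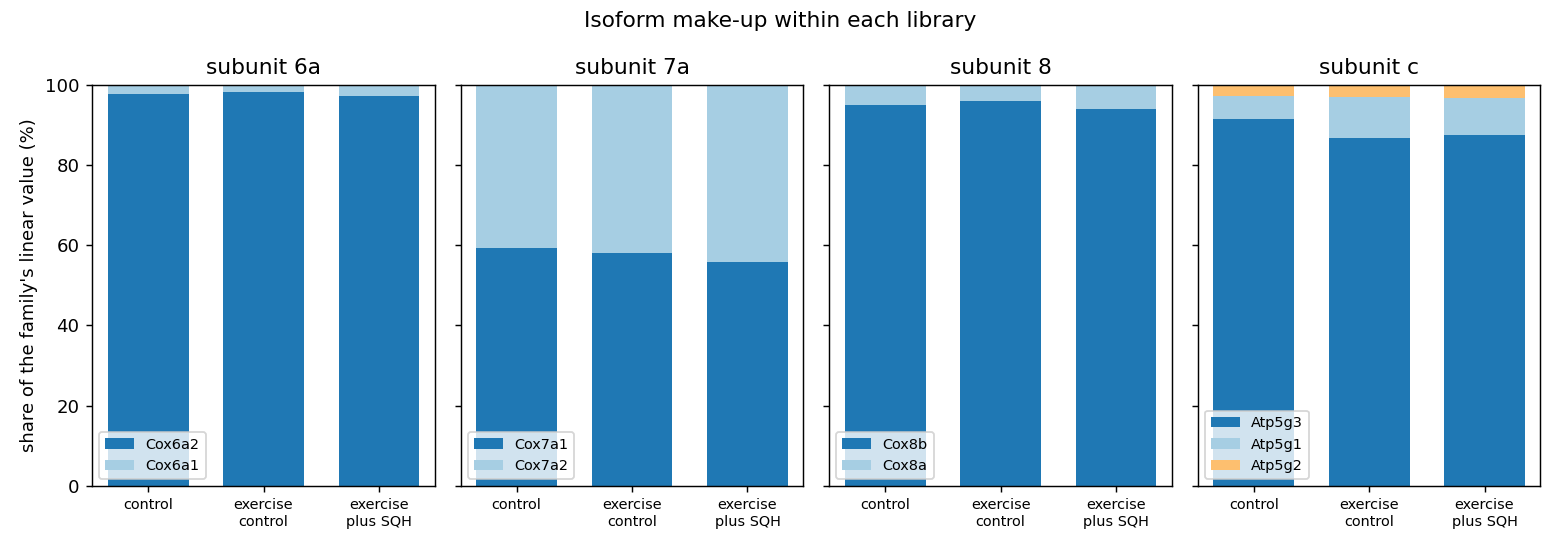
Share (%) of each isoform in the summed linear level of its family (y axis), for subunits 6a, 7a and 8 of complex IV and subunit c of ATP synthase, in each library. Cox6a2 and Cox8b make up over 93% of their families throughout, Cox7a1 between 55.9% and 59.3%, and the share of Atp5g1 in subunit c is lowest in the control, at 5.79%.

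In ATP synthase, the single gene that shifted most was Atp5g1, which encodes the c-ring subunit. Atp5g1 stood at 10.62, 11.53 and 11.70. Both exercised groups lay well above the control, by 0.91 ± 0.05 (1.88-fold) and 1.08 ± 0.04 (2.11-fold, called higher), and they differed from each other by 0.17 ± 0.04 (0.09 after centring). Atp5g2 stood at 9.55, 9.82 and 10.18, and SQH lay 0.63 ± 0.06 above the control. Atp5g3, the most abundant ATP synthase transcript, stood at 14.60, 14.635 and 14.95. As deposited, its control and exercise control values were close (0.04 ± 0.01), and SQH lay 0.35 ± 0.01 above the control. Quantile normalization left the latter at 0.41 but put the exercise control 0.38 above the control and SQH only 0.03 above the exercise control, so the place of the exercise control in Atp5g3 depends on the scaling. SQH was the highest library for all 3 c-subunit genes.

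Atp5g3 supplied most of the c-subunit transcript, at 91.4%, 86.8% and 87.6% of the family. The share of Atp5g1 was 5.79%, 10.1% and 9.17%, and that of Atp5g2 was 2.76%, 3.09% and 3.21%. Relative to Atp5g3 in the same library, the log2 ratio of Atp5g1 exceeded that of the control by 0.875 ± 0.05 in exercise control muscle and by 0.725 ± 0.04 under SQH. The family sum stood at 14.73, 14.84 and 15.14, with the exercise control 0.11 and SQH 0.41 above the control. After quantile normalization the Atp5g1 to Atp5g3 differences from the control were 0.61 and 0.71. Rgs5, a pericyte marker, was likewise set apart in the control, at 12.50 (12.496), 11.005 and 10.88. The other 6 pericyte markers summed to 11.01, 11.02 and 10.98, with Abcc9 the largest (10.29 in the control), but they were not level singly. Notch3 and Cspg4 lay below the control in the exercise control (-0.62 and -0.48) and under SQH (-0.55 and -0.35). So did Higd1b, which missed the minimum. Pdgfrb (0.745) and Kcnj8 (0.906) lay above the control in the exercise control and near it under SQH (0.025 and -0.061). The part of Rgs5-expressing cells in the Atp5g1 result was not tested. The Atp5g1 gene (chromosome 11, 96068852 to 96075670, minus strand) shares 36.0% of the 50-base runs of its transcript ends with other genes, the largest part (21.2%) with the processed pseudogene Gm10039. Atp5g2 shares 55.5%, mostly with the pseudogene Gm10175, and Atp5g3 shares none. The part of such shared reads in the Atp5g1 and Atp5g2 values was not tested. Without the 8 members that share at least 20% of their runs, which include Cox7c and Atp5g1, no member was called in any comparison.

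The catalytic F1 head of ATP synthase, where ATP is formed, was slightly higher in both exercised groups. Atp5a1, the alpha subunit, stood at 13.56, 13.76 and 13.81, so exercise control muscle exceeded control by 0.20 ± 0.02 and SQH did by 0.25 ± 0.02 (0.39 after quantile normalization). Atp5b, the beta subunit, stood at 12.83, 13.13 and 13.02, or 0.30 ± 0.02 and 0.19 ± 0.02 above the control. The central stalk that turns inside the head was flatter. Atp5c1, the gamma subunit, stood at 11.90, 11.76 and 11.92, Atp5d, the delta subunit, at 12.23, 12.295 and 12.28, and Atp5e, the epsilon subunit, at 12.19, 12.33 and 12.12.

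The peripheral stalk, which holds the head still against the turning ring, lay below the control in 3 of its 4 genes in the exercise control. Atp5o, which encodes the OSCP subunit at the top of the stalk, stood at 14.195, 13.87 and 13.74 and lay below the control by -0.32 ± 0.02 (-0.19 after quantile normalization) and -0.45 ± 0.01. Atp5h, subunit d, stood at 11.255, 10.75 and 10.91, with the exercise control -0.51 ± 0.05 and SQH -0.35 ± 0.04 from the control. Atp5j, coupling factor 6, stood at 9.67, 9.34 and 9.90, below the control in the exercise control (-0.33 ± 0.08) and above it with SQH (0.23 ± 0.06). Atp5f1, subunit b, was level at 12.41, 12.43 and 12.37. The 4 genes had a median of -0.33 in the exercise control against the control, while the 3 c-ring genes had 0.275 and the F1 head pair 0.25. That c-ring median is the value of Atp5g2. Atp5g3, which supplied most of the c-subunit transcript, differed by 0.04, and the summed c-subunit level by 0.11. Medians of so few genes are description only. No stalk gene reached 1.5-fold in any comparison. Atp5h shares 59.2% of its transcript-end runs with other genes, Atp5o 44.0% and Atp5j 9.62%. Atp5j also shares 397 exonic bases with Gabpa, a transcription factor gene on the opposite strand, which stood at 7.38, 6.86 and 7.15.

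The small membrane subunits, which help the enzyme form dimers, showed no common direction. Atp5l, subunit g, stood at 12.225, 12.37 and 12.60, with SQH 0.37 ± 0.03 above the control, and 70.1% of its transcript-end runs occur in other genes, the most of any member. Atp5k, subunit e, stood at 10.44, 10.20 and 10.235, below the control in both exercised groups. Atp5j2, subunit f, stood at 11.52, 11.655 and 11.54. Of the associated proteins, Cox7a2l stood at 10.33, 10.33 and 10.195 and Atp5sl at 8.96, 9.06 and 8.75, and neither was called.

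Most of the proteins that build or regulate these complexes were not called either. Of 40 assembly factors and partners, 37 passed the minimum, and 5 were called in some comparison. The counts were 0 higher and 1 lower, 3 higher and 0 lower, and 0 higher and 1 lower in the order of comparisons above, beside 2.95% and 5.33%, 5.68% and 2.33%, and 1.76% and 1.26% of all rows, and counts this small lie near the background. In the exercise control against the control 1 was lower, Coa6, a copper-handling factor of complex IV, at 7.16, 5.57 and 6.50 (-1.58 ± 0.26). In exercise plus SQH against the exercise control 3 were higher. Cox17, the copper chaperone that feeds complex IV, stood at 9.83, 8.87 and 10.20 (1.33 ± 0.08). Atpif1, the inhibitor that stops ATP synthase from running backwards, stood at 6.42, 5.61 and 6.83 (1.22 ± 0.25), and Bcs1l, which inserts the Rieske protein into complex III, at 6.37, 5.83 and 6.87 (1.04 ± 0.24). Bcs1l missed the 2-fold line after centring (0.96), and both it (0.88) and Atpif1 (0.998) missed it after quantile normalization. All 3 had their lowest value in the exercise control, but genes called higher against a library tend to be lowest in it. Uqcrfs1 and Cox7c, also lowest there, were likewise named for their rise in this comparison. Any link of these genes to the slow-fibre markers, lowest in the same library, was not tested.

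In exercise plus SQH against the control only Taco1, an activator of translation of the mitochondrial Cox1 message, was called, and it was lower, at 7.13, 6.46 and 5.53 (-1.60 ± 0.22). Against the exercise control its difference of -0.93 passed 2-fold after centring (-1.005) and quantile normalization (-1.32). The list had medians of -0.16, -0.03 (-0.025) and -0.11 in the order of comparisons above, beside -0.045, 0.03 and -0.015 over all rows. From the uncalled genes of the list, 3 were singled out after their values were seen. Ndufa4, now counted as a subunit of complex IV, stood at 10.97, 10.805 and 11.45, with SQH 0.48 ± 0.04 above the control. Cycs, the cytochrome c that shuttles between complexes III and IV, was level at 10.76, 10.92 and 10.895. Lrpprc, which stabilises mitochondrial messages, stood at 11.32, 10.73 and 11.54, lowest in the exercise control. Other uncalled genes of the list were highest there, among them Ttc19 (9.785, 10.27 and 9.73) and Sco2 (6.68, 6.89 and 6.01).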

How the data were processed

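RNA was extracted with Trizol and made into Lexogen QuantSeq 3' libraries, per the labels' protocols. Bowtie2, edgeR and mm10 appear, with no role stated, in the submitters' processing notes. How reads were assigned to genes, and whether by strand, is not given in the sources used. Each file holds 1 library as log2 values per gene symbol, which the authors deposited without naming the unit. Linear values were 2 to the power of the log2 value, with 0 kept as 0. Low linear values bunch at multiples of a step of 0.939 (control), 1.19 (exercise control) and 0.766 (SQH), taken as 1 read. Within 0.2 step of a multiple were 100%, 95.7% and 84.4% of values no higher than 9, too few to recover exact reads, so no count model was run. Approximate reads are linear values divided by the step, and counting errors assume Poisson reads.

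Groups come from sample titles. The call rule and step finder were tested on simulated data. The rule was a size rule because there is 1 library per group. The rule asked for full values of called members, isoform families and the 2 highest and lowest differences of each complex, and for called assembly factors. The members and gene lists were chosen with earlier results of these data known. Shared runs of 50 bases were counted in the last 300 bases of protein-coding transcripts in GENCODE M21 (GRCm38), where all 44 members were found, 1 of them (Atp5sl) as Dmac2. A RefSeq upstream sequence was found for 33 members. Alternatives were centring, quantile normalization, other minimums, 1.5-fold, leaving out isoform families and, chosen after seeing the data, leaving out members with shared ends. Work used Python 3.11.15, pandas 2.3.3 and NumPy 2.4.6.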

Additional observations from a re-analysis of the deposited data

How the results depend on the processing

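The calls of Cox7c and Atp5g1 held under centring, quantile normalization, the upper-quartile minimum and no minimum. A 1.5-fold bar gave 2, 3 and 2 called members in exercise control against control, SQH against exercise control and SQH against control. Leaving out members with shared transcript ends gave 0 in the latter 2 comparisons, since Cox7c and Atp5g1 were among those left out, and brought the complex IV median of SQH against control from 0.159 to 0.041. Centring moved the exercise control against control medians to 0.17 (complex III), 0.16 (complex IV) and 0.14 (ATP synthase), and quantile normalization moved those of complex III to 0.18 and ATP synthase to 0.17. Centring shifts all rows alike, and the median over all rows came to 0.027 in that comparison and -0.047 in SQH against exercise control. For SQH against exercise control, centring gave -0.168, -0.014 and -0.021, and the complex IV median was 0.13 with no minimum (0.1255) and 0.13 without isoform families. Isoform ratios with a pseudocount of 10 stayed within their counting intervals in all 18 comparisons, and 14 did under quantile normalization, an alternative chosen after seeing the data. That setting turned Atp5g1 to Atp5g3 in SQH against exercise control from -0.15 to 0.10 (0.099) and Atp5g2 to Atp5g3 in exercise control against control from 0.24 to -0.011, and it moved 2 others. Quantile normalization turned the sign of 7 member differences in all, and centring also turned 7. No library can be left out, as each group has 1, and depth limits the low common isoforms most: the counting error of Cox8a was 0.12 in exercise control against control. No paired analysis was possible because each group holds a single library.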
